A study of Mus musculus with 5 samples.

Results

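The regions described here are stretches of the mouse genome that 4 antibodies against NKX2-1 all enriched and that lie inside protein-coding genes, away from gene ends. Peaks of the 4 deposited lists that overlapped by 1 bp or more were joined into 68919 regions, of which 31606 (45.9%) held a peak of all 4 antibodies. The summit of a region was that of its peak with the highest pileup, the number of overlapping sequenced fragments. In 14898 of the 31606 regions (47.1%, exact Clopper-Pearson 95% interval 46.6 to 47.7%) the summit lay inside a protein-coding gene and more than 1 kb from every gene end, and these are called internal regions. Of the other regions, 7101 (22.5%) had their summit within 1 kb of a gene end, and 9607 (30.4%) lay outside genes. Members were chosen by measured values, namely the peak calls and their pileup, so fold enrichment and pileup are given as descriptions without a test.

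NKX2-1 binding was mapped by chromatin immunoprecipitation and sequencing (ChIP-seq) in lungs taken whole from wild-type mice on postnatal day 10, with the antibodies Abcam133737, Millipore07-601, Abcam76013 and Abcam133638. Each antibody had 1 library, called against 1 shared input library, and the labels describe chromatin pooled after sonication. With 1 library per antibody, no value has a replicate error, and intervals of shares cover counting error only. Filtered depth was 43031331 to 46547989 tags per antibody library. Whole lung mixes epithelial, endothelial, mesenchymal and immune cells, so it cannot be told apart which of them bound NKX2-1 at a region, and peak lists hold no RNA level against which the labelled tissue could be checked.

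NKX2-1 is a homeodomain transcription factor of lung, thyroid and ventral forebrain, and in the lung it is made by epithelial cells, among them the flat alveolar type 1 cells that exchange gas and the cuboidal alveolar type 2 cells that make surfactant. Transcription factors bind promoters, at the start of genes, and enhancers, which may lie in introns of the gene they act on, in introns of a neighbour or between genes. The gene that holds a region is therefore its place and not necessarily its target. Homeodomain proteins of the NKX2 class are known to prefer short sites built around CAAGTG, such as CACTTGA and CACTCAA.

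Sequence was at hand only for annotated transcription starts, as windows of 250 bases before to 50 after each start (RefSeq, GRCm38.p6). Genes often have further starts inside their body, their own or those of long non-coding RNAs, and 632 of 6671 starts inside gene bodies (9.47%) had the summit of an internal region in their window. The sequences that follow are examples picked for an NKX2 motif near the summit. They are not typical, because only 8.53% of 633 windows with such a summit held the motif. They belong to later starts of coding genes, namely the 6 of highest mean fold (the mean over the 4 antibodies) with a single NKX2 motif, CACTTGA or CACTCAA on either strand, before the start and within 20 bp of the summit. The motif is in capitals, and each stretch is printed 5′ to 3′ on the strand of its gene, upstream of the start.
Pank1: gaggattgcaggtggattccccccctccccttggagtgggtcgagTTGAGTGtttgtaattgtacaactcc
Plch2: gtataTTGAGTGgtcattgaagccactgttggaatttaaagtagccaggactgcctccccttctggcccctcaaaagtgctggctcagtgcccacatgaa
Zmym4: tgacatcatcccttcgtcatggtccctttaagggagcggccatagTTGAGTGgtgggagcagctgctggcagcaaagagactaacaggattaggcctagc
Lmbrd1: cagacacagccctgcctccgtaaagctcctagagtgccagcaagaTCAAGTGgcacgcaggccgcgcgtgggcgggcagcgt
Bclaf1: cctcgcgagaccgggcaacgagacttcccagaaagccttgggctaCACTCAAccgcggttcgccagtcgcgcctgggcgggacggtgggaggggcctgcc
Dnmt1: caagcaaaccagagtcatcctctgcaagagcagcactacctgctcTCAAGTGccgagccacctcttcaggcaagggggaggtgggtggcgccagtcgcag

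TTGAGTG is CACTCAA read on the other strand, and TCAAGTG is CACTTGA read likewise. The stretch of Pank1, which encodes a kinase that starts coenzyme A synthesis, lay at chr19:34877918-34877988 on the minus strand, upstream of a start 5.506 kb inside the gene, with its motif 14 bp from the summit. Fold enrichment there was 11.8 with Abcam133737, 18.5 with Millipore07-601, 11.6 with Abcam76013 and 14.0 with Abcam133638. That of Plch2, which encodes a phospholipase C, lay at chr4:155019579-155019678 on the minus strand, 11 bp from the summit, with folds of 10.7, 17.1, 9.54 and 15.5 in the same antibody order. With all 4 antibodies, both windows had a fold above the median over internal regions.

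The other 4 windows had mean folds between 10.0 and 12.4. Zmym4, which encodes a zinc finger protein, had its motif 12 bp from the summit at chr4:126968291-126968390 on the minus strand, with a mean fold of 12.4. Lmbrd1, which encodes a lysosomal membrane protein that exports vitamin B12, had its motif 5 bp away at chr1:24678462-24678543 on the plus strand, with a mean fold of 12.0. Bclaf1, which encodes a nuclear protein of transcription and RNA processing, had its motif 4 bp away at chr10:20312335-20312434 on the plus strand, with a mean fold of 11.1. Dnmt1, which encodes the maintenance DNA methyltransferase, had its motif 16 bp away at chr9:20952997-20953096 on the minus strand, with a mean fold of 10.0, upstream of a start 6.909 kb inside the gene.

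Cldn18, which encodes a tight junction claudin and has alternative first exons, gave an example without an NKX2 motif, like most windows with such a summit. Its strongest internal region had its summit 100 bp upstream of a later start, 7.204 kb inside the gene. Folds were 15.0 with Abcam133737, 22.2 with Millipore07-601, 16.6 with Abcam76013 and 24.1 with Abcam133638. The 100 bases around this summit, at chr9:99710114-99710213 on the minus strand, held no CACTTGA or CACTCAA on either strand, and 1 copy of the core CAAGTG, in capitals.
Cldn18 later start: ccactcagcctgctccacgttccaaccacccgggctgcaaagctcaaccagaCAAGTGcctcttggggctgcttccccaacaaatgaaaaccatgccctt

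Across all windows with a motif, the NKX2 letters lay close to the summits. In the 54 windows with the summit of an internal region and an NKX2 motif, the median distance from motif to summit was 23.5 bp, and 77.8% (64.4 to 88.0%) lay within 50 bp. For the ETS motif CCGGAAG, of a factor family common at promoters, that share was 54.7% of 106 windows, and for the C/EBP motif TTGCNNAA 29.0% of 93. The core CAAGTG, which is part of CACTTGA read on the other strand, lay within 50 bp in 44.9% of 107 windows. Motifs were searched on both strands, and a match describes letters, not a bound site. Here and below, windows were counted per annotated start, so neighbouring starts could share a region and its sequence. The intervals do not allow for this.

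The share of windows with an NKX2 motif was modest. It was 8.53% (6.47 to 10.98%) of 633 windows with the summit of an internal region, 6.04% (5.46 to 6.68%) of 6022 internal starts without a four-antibody summit, and 6.22% of all 32851 windows. Of the 633, 1 window belonged to a start that was not itself internal. Windows whose region had a mean fold at or below the median of 6.59 held the motif in 4.10% (2.20 to 6.91%), those above it in 13.0% (9.47 to 17.2%), and those above the third quartile of 9.02 in 16.5% (11.04 to 23.2%). Starts outside genes with a four-antibody summit held it in 17.4% (12.4 to 23.4%), and starts at gene ends with such a summit in 6.74% of 4213.

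Internal starts with an internal region also differed from other internal starts in base composition. ETS motifs were in 16.7% (13.9 to 19.9%) of them, in 3.94% (3.46 to 4.46%) of internal starts without a four-antibody summit, in 25.4% of gene-end starts with one, and in 8.86% of all windows. Their median GC content was 59% and they held a median of 17 CG dinucleotides per 300 bases, where internal starts without a summit had 51.3% and 5, and gene-end starts with a summit had 61.7% and 22. CCGGAAG itself holds a CG, and the part of base composition in the difference was not tested. Each other motif is given in windows with the summit of an internal region, then in internal starts without a four-antibody summit and in all windows. The C/EBP motif was in 14.7% (12.025 to 17.7%), beside 10.5% and 10.8%, and the NFI motif in 2.53% (1.45 to 4.07%), beside 1.11% and 1.38%. The core CAAGTG was in 16.9% (14.1 to 20.1%), beside 15.04% and 13.6%, so its interval held the share of the other internal starts. The intervals of AP-1 (TGANTCA) and TEAD (ACATTCC), at 6.95% (5.10 to 9.22%) and 4.74% (3.22 to 6.70%), held both shares, 8.32% and 7.81% for AP-1 and 3.97% and 3.85% for TEAD. The forkhead motif TGTTTAC was in 2.05% (1.10 to 3.49%), beside 3.84% and 3.65%.

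Most internal regions were more than 1 kb from any start in the table of starts. That table matched 17273 genes (79.9%) and also lacks genes of chromosomes other than 18, so regions near a missing start are not counted as near one. Of the 14381 internal regions on chromosomes covered by the table of starts (all but chromosome 18), 1152 (8.01%, 7.57 to 8.47%) had their summit within 1 kb of one, 911 of them at a later start of a coding gene and 241 at a start of a long non-coding RNA. Later starts of host genes held an internal or other four-antibody summit in their window in 14.1% (13.0 to 15.3%) of 3881 cases, and non-coding RNA starts inside genes in 3.62% (2.96 to 4.38%) of 2790. Internal regions near a start were wider (median 465 bp) than those farther away (392 bp), and their median mean fold was 6.72, beside 7.33.

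Fold enrichment, the authors' ratio of pileup to local background, was compared between positions within each antibody. Over the internal regions its median was 6.15 with Abcam133737 (quartiles 4.73 to 8.94), 8.88 with Millipore07-601 (6.35 to 13.3), 6.09 with Abcam76013 (4.67 to 8.95) and 8.36 with Abcam133638 (6.15 to 12.1). Regions outside genes had nearly the same medians, 6.06, 8.88, 6.09 and 8.22. Regions within 1 kb of a gene end had 5.76, 7.61, 5.68 and 8.26, so the gap to the internal regions was widest with Millipore07-601 and narrowest with Abcam133638. The mean fold had a median of 7.28 over internal regions, 6.81 at gene ends and 7.27 outside genes.

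**Figure D1:**
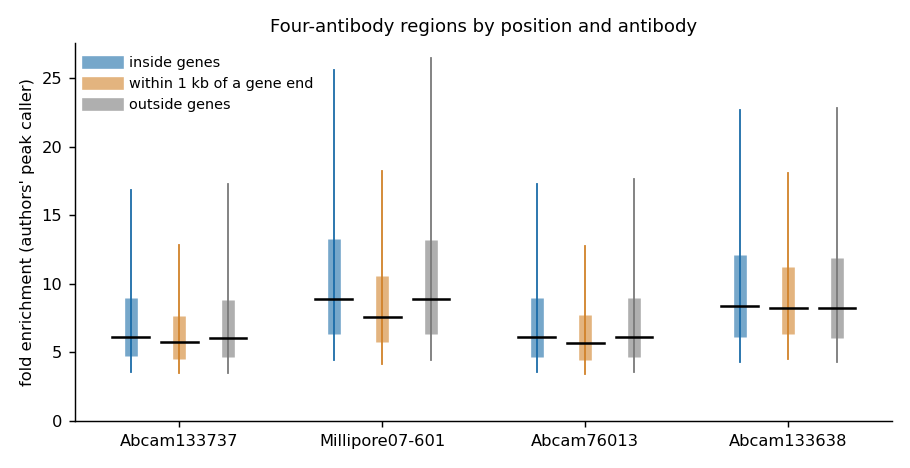
Fold enrichment given by the authors' peak caller (vertical axis) for each antibody (horizontal axis) at four-antibody regions inside genes, within 1 kb of a gene end and outside genes. Black lines are medians, thick bars run from the first to the third quartile and thin lines from the 5th to the 95th percentile over regions. Medians inside and outside genes nearly coincide, and gene-end regions have the lowest median with Abcam133737, Millipore07-601 and Abcam76013.

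Internal regions also resembled those outside genes in shape. Their median width was 396 bp (range 175 to 1894 bp), beside 390 bp outside genes and 478 bp at gene ends. The 4 summits of a region spanned a median of 44 bp inside genes and outside them, and 54 bp at gene ends. The peak of highest pileup came from Millipore07-601 in 62.8% of internal regions and in 36.9% of gene-end regions, and from Abcam133638 in 32.7% and 58.6%. Pileup was not scaled for depth in this choice. Ranks of fold followed each other between antibodies over internal regions, with Spearman's rank correlation from 0.85 to 0.87 for the 6 pairs, a description over regions that share chromatin and input.

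The share of internal regions was highest among the strongest four-antibody regions. When all 31606 were ordered by the mean over antibodies of the within-list percentile of fold, internal regions made up 45.7% (44.0 to 47.5%) of the lowest decile and 54.4% (52.7 to 56.2%) of the highest, and gene-end regions fell from 24.3% to 11.3%. The share of regions outside genes also rose, from 30.0% (28.4 to 31.6%) to 34.3% (32.6 to 35.9%). Through the lower 7 deciles the internal share moved between 44.7% and 47.0%.

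The 10 internal regions with the highest mean percentile had mean folds of 44.2 to 51.0. The highest lay in Slc26a9, which encodes a chloride transporter of epithelia, at chr1:131763872-131765115, 20.8 kb from the gene's start. Its fold was 46.1 with Abcam133737, 60.3 with Millipore07-601, 42.6 with Abcam76013 and 55.2 with Abcam133638, and Slc26a9 held 7 internal regions in 27.5 kb. The next lay in Atf6, which encodes a sensor of unfolded protein in the endoplasmic reticulum, at chr1:170770486-170771157, with folds of 45.7, 57.5, 42.8 and 52.4 in the same antibody order. The third lay in Tnrc6a, which encodes a scaffold of microRNA silencing, at chr7:123097478-123098565, with folds of 44.5, 57.1, 41.8 and 49.4. In each of these 3, Millipore07-601 gave the highest fold and Abcam76013 the lowest.

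Several of the strongest regions lay deep in genes and far from any other gene. For those in Atf6 and Tnrc6a, the nearest other genes were Gm29733 (79.7 kb) and Rbbp6 (95.4 kb). The regions that follow are named because their nearest other gene is known in lung cells. The region in Dgkg, which encodes a diacylglycerol kinase, at chr16:22536377-22537633 had a mean fold of 47.0. Its nearest other gene, 97.4 kb away, was Etv5, which encodes an ETS factor known in alveolar type 2 cells. The region in Mindy4, of a deubiquitinase family, at chr6:55256253-55257242 had a mean fold of 44.8, and its nearest other gene, 79.8 kb away, was Aqp1, which encodes a water channel of lung endothelium. Which gene any of these regions acts on is not known from these data.

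The other 5 of the 10 lay in Ltbp2, Lca5l, Col4a4, Sh3bp5 and Pdcd4, with mean folds of 46.8, 46.0, 45.2, 44.9 and 44.2. Ltbp2 encodes a matrix protein that resembles the binding proteins of latent TGF-beta. It held 9 internal regions, and its strongest was at chr12:84805200-84806083. Col4a4, which encodes a basement membrane collagen chain, had its region at chr1:82577779-82578386, 8.95 kb from the nearer end of its neighbour Col4a3. Pdcd4 encodes an inhibitor of translation, and its region was at chr19:53921976-53922546, with folds of 36.8, 56.3, 38.6 and 45.05 in the antibody order above.

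At the other end, a few internal regions passed as peaks in all 4 lists with little fold but tall pileup. The lowest lay in Sfi1, which encodes a centrosome protein, at chr11:3159955-3160628, with folds of 1.42 with Abcam133737, 1.59 with Millipore07-601, 1.47 with Abcam76013 and 1.57 with Abcam133638. Its pileup of 30.7, 26.5, 27.8 and 26.6 fragments per 10000000 filtered tags was above the median over internal regions, 6.66, 10.2, 6.89 and 9.16. The second lowest, in the overlapping genes Cmss1 and Filip1l at chr16:57391159-57391736, had a mean fold of 1.64 and pileups of 42.1 to 44.7. Of the 14898 internal regions, 63 (0.423%) had a mean fold under 3, and 44 of these 63 had a pileup above the median of all internal regions, 8.16. All 19 internal regions of Sfi1 were among the 63. A low fold at a tall pileup means a high local background, and the part of the input in it was not tested.

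Regions on both sides of the 1 kb limit had overlapping folds. The nearest inside the limit lay in Hspg2 (1.001 kb from a gene end, mean fold 8.59), Szrd1 (1.001 kb, 6.86) and Ptk6 (1.002 kb, 16.4). The nearest outside it, also with summits inside a gene, lay by an end of 0610010F05Rik (1 kb, 8.43), Mocs1 (0.998 kb, 23.2) and Mettl5 (0.998 kb, 6.51). The widest internal regions, of 1894, 1868 and 1808 bp, lay in Arhgap31, Fbln5 and Sfi1, with mean folds of 21.9, 26.2 and 2.36.

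Antibodies differed in peak number, with 57763 and 57891 peaks with Millipore07-601 and Abcam133638 and 40877 and 41296 with Abcam133737 and Abcam76013. The ratio of depth-scaled pileup between the first pair and the second had a median of 1.41 inside genes, at gene ends and outside genes. It was highest at an internal region in Hivep2 (2.63), with pileups per 10000000 tags of 4.08 with Abcam133737, 10.2 with Millipore07-601, 3.87 with Abcam76013 and 10.7 with Abcam133638, and next in Opa1 (2.37). It was lowest in Xrcc6 (0.734) and Thnsl2 (0.760), where pileups were at most 6.67. No replicate shows how much of such a ratio would recur.

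Internal regions were spread over 5784 of 21627 protein-coding genes (26.7%) of the autosomes and chromosome X. A single region was found in 2777 of these genes, 2 to 4 regions in 2163, and 5 or more in 844 (3.9% of all genes). The 844 genes held 6661 internal regions, 44.7% of the total, and 17 genes held 20 or more. There were 156 regions inside more than 1 gene, counted in each. On autosomes the density over gene interiors, the sequence more than 1 kb from every gene end, ran from 12.5 to 20.0 regions per Mb with a median of 15.4, and on chromosome X it was 3.32.

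Longer genes held an internal region more often. The genes with one had a median length of 51.5 kb and those without 11.3 kb. The share of genes with an internal region was 3.74% (3.01 to 4.57%) for lengths of 2 to 5 kb, 33.8% (32.5 to 35.2%) for 20 to 50 kb, 66.0% (63.5 to 68.5%) for 100 to 200 kb and 69.5% (63.0 to 75.4%) above 500 kb. Density ran the other way, from 27.2 regions per Mb of interior in genes of 2 to 5 kb to 18.5 at 100 to 200 kb, 12.5 at 200 to 500 kb and 5.03 above 500 kb.

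**Figure D2:**
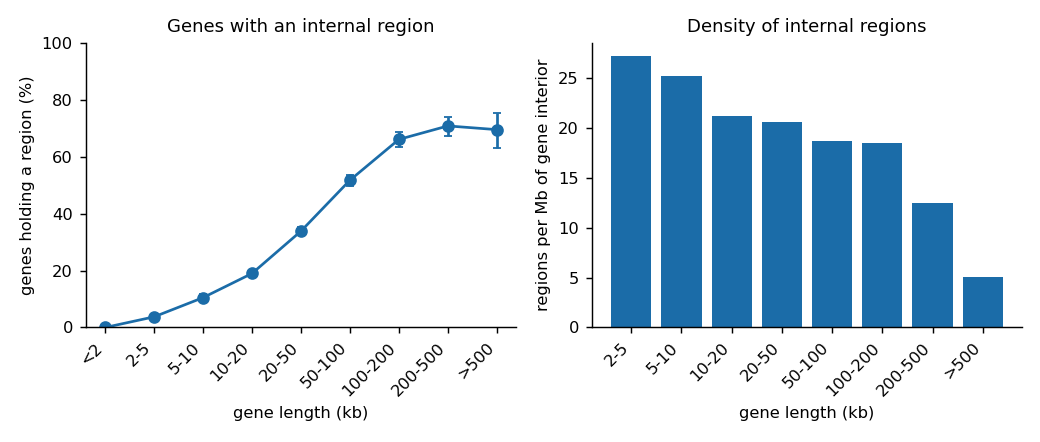
Left, the share of protein-coding genes with an internal region (percent, points, with exact 95% intervals as bars) by gene length in kb. Right, internal regions per Mb of gene interior (bars) by gene length. The share climbs from 3.74% at 2 to 5 kb to about 70% in the longest genes, while the density falls from 27.2 to 5.03 per Mb.

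Genes with an internal region more often also had a four-antibody region within 1 kb of an end, 45.4% (44.1 to 46.7%) of them beside 29.2% (28.5 to 29.9%) of the other genes. The gap was there in each length band above 2 kb, from 56.7% and 29.7% at 2 to 5 kb to 19.1% and 5.80% above 500 kb. Cell types that use a gene and openness of its chromatin were not measured, and their part was not tested.

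Within genes, internal regions lay more densely just behind the start. Strand, and with it the start, was known for 17273 genes (79.9%). In the 1864 such genes of at least 100 kb, density was 51.4 regions per Mb at 1 to 2 kb from the start (94 regions), 28.0 at 2 to 5 kb and 17.6 at 5 to 10 kb. Counted from the far end it was 15.9, 15.1 and 13.0, and over the whole interior 12.3. Of the 94 regions nearest the start, 29 (30.9%, 21.7 to 41.2%) lay within 1 kb of another annotated start.

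In genes of at least 20 kb, 13.2% (12.6 to 13.9%) of 10794 internal regions lay in the first decile of the gene and 7.69% (7.19 to 8.21%) in the last. The median mean fold moved little along the gene, between 7.05 in the first decile of length and 7.70 in the fifth. Density was thus higher near the start, while the fold was not. Over all internal regions the distance to the nearest gene end had a median of 17.6 kb (quartiles 6.07 to 44.9 kb), and 22.4% lay more than 50 kb from one. Neighbouring regions in the same gene were a median of 8.67 kb apart, and 36.9% of the 9387 gaps were 5 kb or less.

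**Figure D3:**
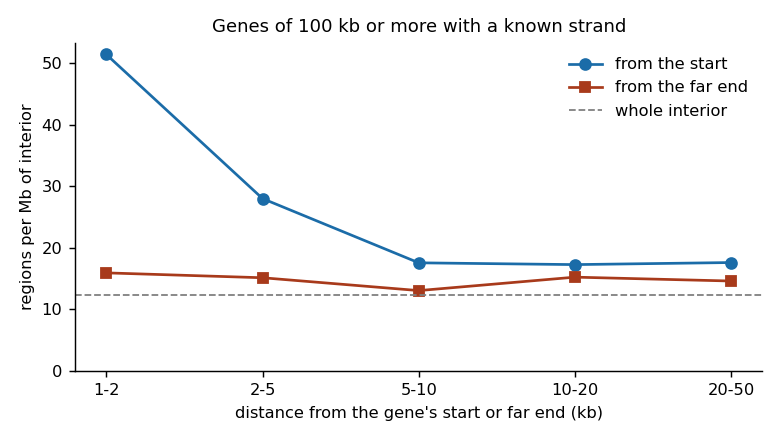
Internal regions per Mb of interior (vertical axis) by distance in kb from the start (circles) or the far end (squares) of genes of 100 kb or more with a known strand, and the density of their whole interior (dashed line, 12.3). Density is 51.4 at 1 to 2 kb from the start and 15.9 at the same distance from the far end.

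The genes with the most internal regions were long and several encode transcriptional regulators. Nav2, which encodes a protein of neurite growth and cell migration, held 40 in 651 kb, with mean folds of 3.69 to 24.5 and a median of 7.65. Rad51b, of homologous recombination, held 34 in 551 kb with a median of 7.07, and its strongest, at chr12:79588783-79589379 and 292 kb from the start, had folds of 36.0 with Abcam133737, 53.3 with Millipore07-601, 39.4 with Abcam76013 and 45.7 with Abcam133638. Stard13, which encodes a GTPase-activating protein, held 27. In each of the 3 the strongest region stood well above the gene's median.

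Foxp1, which encodes a forkhead factor of lung epithelium, and Nfia, of the nuclear factor I family, held 25 each. Their highest mean folds were 31.6 and 17.2. Gse1, Mecom, Nedd4l and Prdm16 held 24 each. Mecom and Prdm16 encode related zinc finger regulators, and Nedd4l encodes a ubiquitin ligase known to act on the epithelial sodium channel. The strongest region of Mecom had a mean fold of 35.3 and lay 4.93 kb from the start, at chr3:30504566-30505130. Arhgap26, which encodes another GTPase-activating protein, held 23 with a highest mean fold of 16.6.

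**Figure D4:**
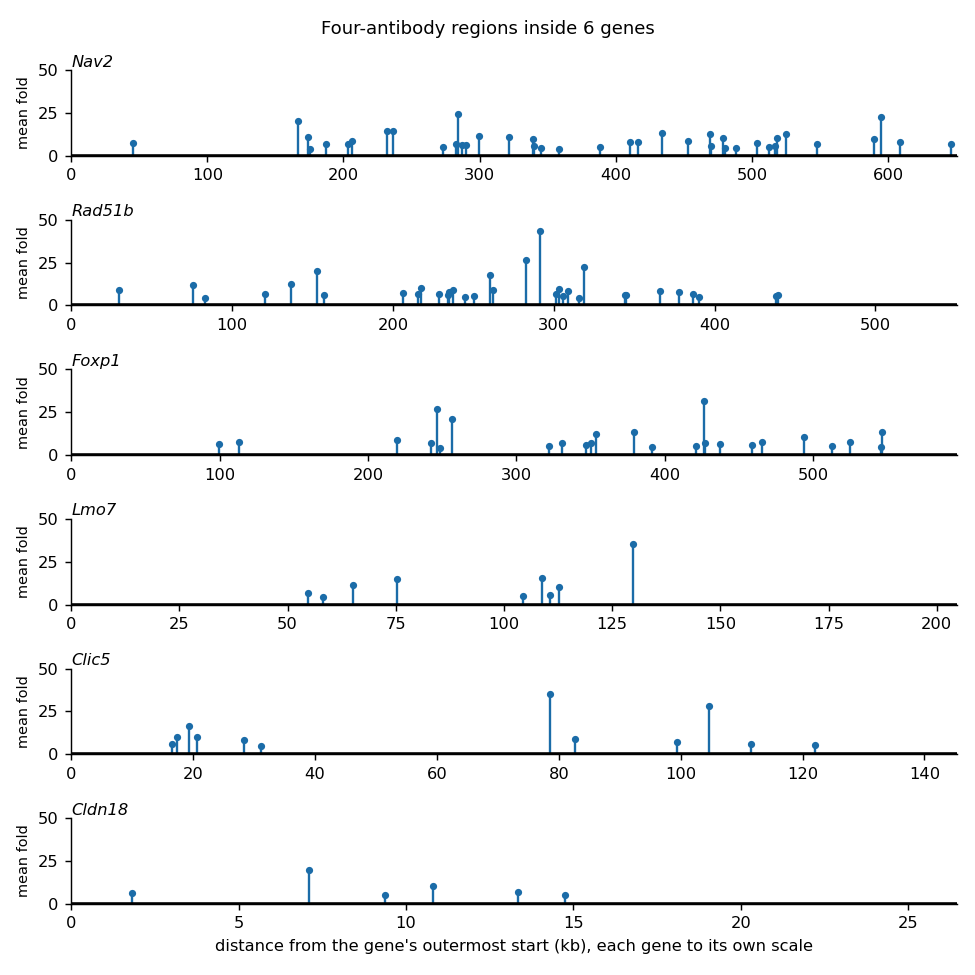
Internal regions along 6 genes, by distance in kb from the gene's outermost start (horizontal axis, each gene to its own length) and mean fold of the 4 antibodies (vertical axis, 0 to 50). Each line is 1 region. Nav2 holds 40 regions, none above 24.5, and Rad51b holds 34 with a single one at 43.6, while Lmo7 and Clic5 hold 9 and 12 with their strongest at 35.5 and 34.9.

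Per length, short genes led. The 5 densest among genes with at least 3 internal regions were Eef2 (77.4 per 100 kb of interior), Elovl1 (74.5), Tst (69.6), Gpx4 (68.8) and Epn3 (59.7). Eef2, of translation elongation, held 3 regions with mean folds of only 2.19 to 3.43, whereas Epn3, which encodes an endocytic adaptor, held 5 with a highest of 35.0. Gpx4 encodes a glutathione peroxidase that removes lipid peroxides, and its 5 regions reached 13.5. The longest genes had few: Dmd, of dystrophin, held 2 in 2390 kb, Ptprd and Cntnap2 held 1 each, and Lsamp, Lrp1b, Csmd1, Pcdh15 and Dpp10, the 5 longest genes without any, span 1514 to 2197 kb. Most of these long genes are known for roles in neurons.

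Lists of 30 genes each showed which kinds of gene held internal regions. Each count is set beside the share of all genes with an internal region, 26.7%, and beside the share that genes of the same length bands had. All lists were chosen with earlier results of these data known, so the counts are descriptions without a test. Genes too short to have any interior, namely Sfta2, Cldn3, Cldn4, Sox18, Cldn5, Gpihbp1, Ramp2, Cd68 and S100a8, could not hold an internal region and count as without one.

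Of the alveolar type 1 genes, 25 of 30 (83.3%) held an internal region, where genes of the same lengths gave 37.5%. They held 99 regions at 48.1 per Mb of interior, beside 15.1 over all genes and 20.6 over genes of 20 to 50 kb. Their median length was 32.2 kb, and the median of their best mean folds was 13.0. The strongest lay in Col4a4, described above, and next in Icam1, which encodes an adhesion molecule, at chr9:21024976-21025705. Folds in Icam1 were 32.7 with Abcam133737, 45.7 with Millipore07-601, 36.3 with Abcam76013 and 41.2 with Abcam133638. Lmo7, which encodes an actin-linked junction protein, followed at chr14:101859397-101859994 with folds of 31.8, 43.1, 30.0 and 36.9.

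Clic5, which encodes a chloride intracellular channel protein tied to the actin cortex, held 12 internal regions over 145 kb. The strongest, at chr17:44213153-44213728 and 78.6 kb from the start, had folds of 29.4, 45.3, 28.8 and 36.2 in the antibody order used throughout. Cyp4b1, of a cytochrome P450, held 1 region with a mean fold of 31.7. Cav1, of caveolae, held 1 with a mean fold of 2.58, the lowest best value of the list. Among the usual markers of these cells, Hopx, a homeodomain-only cofactor, held 1 region (mean fold 6.87), Aqp5, a water channel, 1 (5.09), Pdpn, podoplanin, 1 (13.0), and Vegfa, a vascular growth factor, 2 (up to 12.7). Ager, Cav2, Igfbp2, Myrf and Krt7 held none, and of these Ager, Cav2 and Krt7 had a four-antibody region within 1 kb of an end.

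Of the alveolar type 2 genes, 20 of 30 (66.7%) held an internal region, where genes of the same lengths gave 27.6%, with 55.8 regions per Mb. The strongest lay in Lgi3, which encodes a secreted leucine-rich repeat protein, at chr14:70529684-70531106, with folds of 27.0 with Abcam133737, 42.9 with Millipore07-601, 31.5 with Abcam76013 and 37.5 with Abcam133638. Dram1, of autophagy, held 6 regions with a best mean fold of 32.2, Napsa, the protease that processes surfactant protein B, 3 with 29.5, Rab27a, of vesicle release, 3 with 28.9, and Ppp1r14c, an inhibitor of protein phosphatase 1, 4 with 27.2. Abca3, the lipid transporter of lamellar bodies, held 4 with up to 20.5.

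Surfactant protein genes had weaker internal regions. Sftpc held 1 with a mean fold of 4.77, Sftpb 2 with up to 6.86 and Sftpd 1 with 10.2. Sftpc has only 1.14 kb of interior and Sftpb 7.76 kb. Sftpc, Sftpb and Sftpd also had a four-antibody region within 1 kb of an end, whose fold is not given here. Sftpa1, Cebpa, Lyz2, Cxcl15, Fabp5, Scd1, Fasn, Chia1, Sfta2 and Slc6a14 held none, and Sfta2, 0.862 kb long, has no interior. All of these but Lyz2 and Slc6a14 had a four-antibody region within 1 kb of an end. One or the other kind was thus found in 28 of 30 type 2 genes and in 28 of 30 type 1 genes. Over all genes, 26.7% had an internal region, and 29.2% of the genes without one had a gene-end region.

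**Figure D5:**
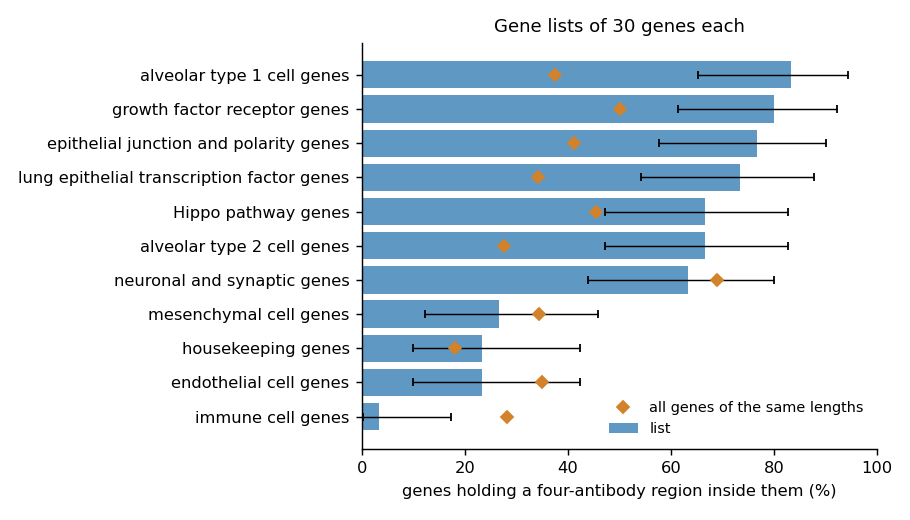
Share of genes with an internal region (percent, bars, with exact 95% intervals) in 11 lists of 30 genes, and the share in all genes of the same length bands (diamonds). Bars lie above their diamonds in the alveolar, epithelial factor, Hippo, junction, growth factor receptor and housekeeping lists, and the immune bar (3.33%) lies below its diamond (28.1%). The lists were chosen with earlier results of these data known. The intervals cover counting error only and are no test of a list against its diamond.

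Among lung epithelial transcription factor genes, 22 of 30 held an internal region, beside 34.2% in genes of the same lengths. After Foxp1 the strongest lay in Elf5, which encodes an ETS factor, with 10 regions and a best mean fold of 27.2, and in Tfcp2l1, of the grainyhead superfamily, with 4 and 25.5. The gene of NKX2-1 itself is 4.97 kb long and held 1 region, at chr12:56534904-56535744, with folds of 21.0 with Abcam133737, 26.0 with Millipore07-601, 20.1 with Abcam76013 and 26.9 with Abcam133638. Foxa1, Foxa2, Sox2, Sox9, Grhl1, Id2, Irx3 and Tbx3 held none.

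Genes of signalling and cell shape had internal regions in 20 to 24 of 30 per list. Hippo pathway genes, which link cell contact and tension to the coactivators YAP and TAZ, had a region in 20 of 30, beside 45.5% in genes of the same lengths. Vgll4, a partner of TEAD factors, held 17, and the strongest lay in Taok3, a kinase (mean fold 30.9), Wwc1, of the KIBRA scaffold (29.6), and Amotl1, an angiomotin (23.4). Junction and polarity genes had 23 of 30 beside 41.1%, led by Prkci, of atypical protein kinase C (29.9), Tjp1, of the tight junction (26.0), and Pkp2, of the desmosome (24.9).

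Growth factor receptor genes, a list that also holds Notch and Wnt receptor genes, had an internal region in 24 of 30. Genes of the same lengths had one in 50.0%. Their strongest lay in Notch2 (mean fold 27.0) and in Igf1r, the receptor of insulin-like growth factor 1, with 15 regions and 26.2, and then in Ryk, a Wnt receptor (17.99).

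Lists of other lung cell types were read in the same way. Endothelial genes had an internal region in 7 of 30 (23.3%, 9.93 to 42.3%), an interval that held the 34.9% of genes of the same lengths, at 7.81 per Mb. By mean percentile of fold the best were in Eng (mean fold 12.9), a TGF-beta co-receptor, Tek, an angiopoietin receptor (8.84), and Vwf, von Willebrand factor (8.37). Mesenchymal genes had one in 8 of 30 (26.7%, 12.3 to 45.9%), an interval that held the 34.4% of their lengths, at 8.58 per Mb, and by the same percentile the best were in Myocd, a coactivator of smooth muscle genes (8.77), Axin2, a Wnt feedback gene (7.69), and Rgs5, a pericyte regulator of G protein signalling (7.92). Immune genes had one in 1 of 30 (3.33%, 0.0844 to 17.2%), beside 28.1%, at 2.24 per Mb, namely in Ikzf1, of a lymphoid zinc finger factor, with 2 regions and a best mean fold of 12.1.

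Neuronal genes, whose median length was 916 kb, had an internal region in 19 of 30 (63.3%, 43.9 to 80.1%), an interval that held the 69.0% of genes of the same lengths. Their density was 2.24 per Mb, 17 of their 66 regions lay in Cacna1c, of a calcium channel (best mean fold 27.0), and the next best were in Grin2b, of a glutamate receptor (16.1), and Ntm, of neuronal adhesion (13.2). Housekeeping genes had one in 7 of 30 (23.3%, 9.93 to 42.3%), an interval that held the 17.996% of their lengths. Their density was 31.8 per Mb, beside 15.1 over all genes. Their median length was 15.3 kb, and genes of 10 to 20 kb had 21.2 per Mb. Of their 13 regions, 3 lay in Eef2, with mean folds of 2.19 to 3.43. The best were in Rab7, of late endosomes (13.1), Tfrc, the transferrin receptor (9.77), and Actb, beta-actin (9.54). Most housekeeping genes, 24 of 30, had a region inside or within 1 kb of an end. Over all genes, 26.7% had a region inside, and 29.2% of the others had one within 1 kb of an end.

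Some internal regions lay on microRNA genes. Of 1005 microRNA hairpins in the RefSeq table, 39 had the summit of an internal region within 1 kb and 15 were overlapped by one. Gene interiors in general held 15.1 internal regions per Mb. How many hairpins lie in gene interiors was not counted, so the counts do not show whether hairpins differ from other interior sequence. The region in Cdc20b overlapped the hairpin of Mir449c, of a family known from multiciliated cells, with folds of 5.97 with Abcam133737, 9.31 with Millipore07-601, 5.28 with Abcam76013 and 8.62 with Abcam133638. Its mature microRNA and that of its neighbour Mir449a, both on the plus strand of chromosome 13, share the seed (bases 2 to 8, in capitals), which is why both are shown.
miR-449c-5p: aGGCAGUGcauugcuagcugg
miR-449a-5p: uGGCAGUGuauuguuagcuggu

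The strongest region over a hairpin covered Mir6715 inside Tectb, with folds of 32.7, 45.3, 30.4 and 43.5 in the same antibody order. Another covered Mir6917 inside Erbb3, which encodes a receptor of neuregulin, with a mean fold of 12.7. A region on a hairpin does not show whether the microRNA or its host gene is acted on.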

How the data were processed

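Peaks of the authors came from MACS 2.1.2, run on each of 4 antibody libraries against 1 input library with a q-value cutoff of 0.05, per the file headers. The deposited tables, in mm10 coordinates, give each peak's pileup signal in tags, its fold over local background (a ratio), and its p-value and q-value as −log10. The submitters' processing notes name Bowtie, MACS2, SAMtools, Trimmomatic, FastQC and deepTools. Versions other than that of MACS are not given in the sources used here. Fold and pileup are the authors' values.

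From these tables, peaks were merged and placed against 21627 RefSeq protein-coding genes of GRCm38.p6, the build of mm10, with Python 3.11.15, pandas 2.3.3, numpy 2.4.6, scipy 1.17.1 and matplotlib 3.10.9. Tied pileups were resolved by fold. Pileup was divided by filtered tags in ratios between libraries and in printed pileups. The peak that gave a region its summit was chosen by pileup not scaled for depth. Merging and placing were tested on simulated data. Strand came from the RefSeq table of promoter sequences. No test across samples was possible with 1 library per antibody, and depth was 43031331 to 46547989 filtered tags.

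The members, gene lists and rules were chosen with earlier results of these data known. Named regions are the 10 highest by mean percentile of fold, the lowest 2, the widest 3, the extremes of the antibody ratio and those nearest the 1 kb limit. Named genes are those with the most regions, the densest, the longest and the best 3 of each list (5 for alveolar lists). Sequences, microRNAs, the genes drawn along their length and other genes were chosen after their values were seen. Overlap, summit distance, q-value, fold, summit, gene-end limit, gene models, antibodies and the density denominator were varied. Exons, introns and motifs around all summits were not analysed here. Results of 1 further gene list are not reported here.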

Additional observations from a re-analysis of the deposited data

How the results depend on the processing

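The counts of internal regions, of genes with one, of genes with at least 5 and of alveolar genes stayed within 1.5 times under every alternative run, except that peaks with a fold of at least 5 left 8692 internal regions and 377 genes with at least 5. The share of four-antibody regions inside genes moved beyond its interval with a reciprocal overlap of 50% (48.3%), summits within 100 bp (48.2%), a fold of at least 5 (48.6%) and gene-end limits of 0.5 kb (50.0253%) and 2 kb (43.3%). The median mean fold was 7.504 with the reciprocal overlap and with close summits, 7.999 at −log10 q of at least 5 and 9.89 at a fold of at least 5. The median density per 100 kb was 3.62, 3.70, 3.52 and 2.94 under those 4 settings, 4.14 and 3.66 under the 2 limits and 3.70 over whole gene length. Leaving out each antibody gave 15150 to 17039 internal regions, a share of 46.97 to 47.4%, 5829 to 6266 genes, a median mean fold of 6.73 to 7.14, 25 to 26 type 1 and 20 to 22 type 2 genes, 862 to 998 genes with at least 5 and a density of 3.95 to 4.24. Those runs needed peaks of the remaining antibodies only and averaged fold over them, so their mean fold is a different measure from the mean of all 4. An alternative chosen after seeing the data, without regions of a mean fold under 3, left 14835 internal regions and 24 type 1 genes, without Cav1. The core CAAGTG in place of the longer motifs was in 16.9% of start windows. Alternatives that need a genome or exons were not run. No paired analysis was possible because each antibody had 1 library. The effect of depth on which weak peaks reached all 4 lists was not tested, and in which cells regions were bound cannot be told apart in whole lung.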
